A study of Mus musculus with 6 samples.

Results

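The 7 enzymes described here, Fbp1, Fbp2, Pck1, Pck2, G6pc, Pcx and Khk, carry out the committed steps of gluconeogenesis and the first step of fructose breakdown. They are 7 of the 18193 genes measured, and each was read from its brightest probe set with a single gene symbol. They were measured in the distal jejunum of 3 mutant mice, in which Hnf4a was deleted by a villin-driven Cre recombinase (labelled HNF4fxVilCRE_MUT), and of 3 control littermates (labelled HNF4fxVilCRE_CTRL), with 1 expression array per animal. All 6 animals carried the strain label B6.129X1(FVB)-Hnf4atm1.1Gonz/J, were 7 months old and received ketamine at 300 mg/kg and xylazine at 40 mg/kg before they were killed. Villin-Cre acts in the epithelium, whereas the RNA came from whole jejunum biopsies, so Hnf4a of other cells was left intact and their RNA was measured too. The Cre status of the controls, the time since the last meal and the place of the probes relative to the deleted exons are not stated in the labels. The enzymes were chosen by the measured difference between these mutants and controls, so their differences are given as a description, with no test.

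Gluconeogenesis makes glucose from lactate, amino acids and glycerol, mainly in liver and kidney and to a lesser extent in the small intestine. Pyruvate carboxylase (Pcx) turns pyruvate into oxaloacetate in mitochondria, and phosphoenolpyruvate carboxykinase, cytosolic (Pck1) or mitochondrial (Pck2), turns that into phosphoenolpyruvate. Fructose bisphosphatase (Fbp1 in liver and kidney, Fbp2 best known from muscle) and glucose 6-phosphatase (G6pc) complete the path to free glucose, and ketohexokinase (Khk) phosphorylates dietary fructose, which enterocytes of the small intestine take up and partly convert. HNF4A, the nuclear receptor encoded by Hnf4a, is known in liver as an activator of Pck1 and G6pc.

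Among the 7 enzymes Fbp1 stood far below its control level in the mutants, Khk and Fbp2 were modestly lower, G6pc was at the same mean level, and Pck1 was low in a single mutant. On the log2 signal scale the differences, mutant minus control, were -2.39 for Fbp1, -0.49 for Khk, -0.38 for Fbp2 and 0.01 for G6pc. Pcx and Pck2 had higher means in the mutants, by 0.21 and 0.45, with overlapping values. As a count that the choice of the enzymes already fixed, and no test of them, 1 of the 7, Fbp1, lay past an adjusted p under 0.05 in the fit over all genes, on the lower side, where 0.33% of all genes passed as lower, 0.198% as higher and 0.528% in either direction. The mutant values lay wholly below the control values for 3 of the 7, namely Fbp1, Fbp2 and Khk, a pattern seen in 10.2% of all genes, and 0 of the 7 lay wholly above, against 6.93% of all genes. The median difference of the 7 was -0.38, against -0.01 over all genes. Without mutant 3 that median was 0.20.

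**Figure D1:**
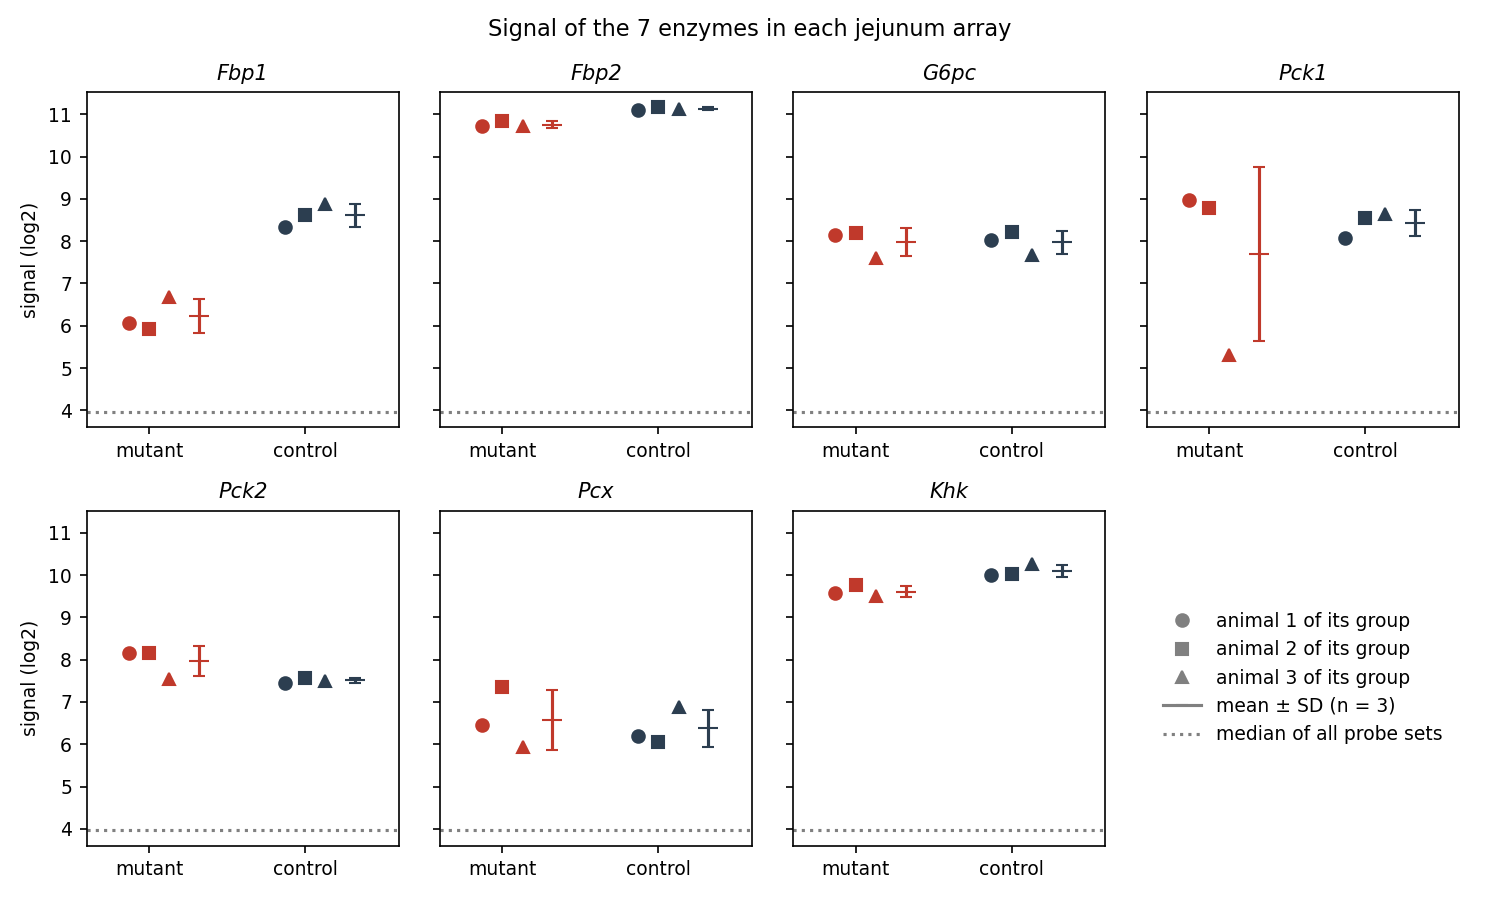
Signal (log2, y axis shared by all panels) of the 7 enzymes in 3 mutant and 3 control jejunum arrays, with 1 symbol per animal, the mean and SD beside the points, and the dotted line at the mean of the array medians. Fbp1 is apart between the groups by 1.66 at the nearest points, and Pck1 reads 5.31 in mutant 3 against 8.08 or more in the other 5 arrays.

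The windows around the start sites of the enzymes with the clearest patterns are shown so that the lower genes (Fbp1, Khk and Fbp2) can be set beside those with equal means (G6pc) or 1 low array (Pck1). Each runs 5′ to 3′ from 250 bases before to 50 bases after the start site, from RefSeq on GRCm38.p6, and capitals mark matches to the motifs searched.
Fbp1 promoter, chr13:62888233-62888532, minus strand: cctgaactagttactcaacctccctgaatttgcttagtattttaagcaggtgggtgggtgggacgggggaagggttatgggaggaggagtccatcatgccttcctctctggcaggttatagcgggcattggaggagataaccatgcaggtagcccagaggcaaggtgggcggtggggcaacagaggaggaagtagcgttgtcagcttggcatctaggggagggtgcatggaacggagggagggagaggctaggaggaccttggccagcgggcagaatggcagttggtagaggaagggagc
Khk promoter, chr5:30921309-30921608, plus strand: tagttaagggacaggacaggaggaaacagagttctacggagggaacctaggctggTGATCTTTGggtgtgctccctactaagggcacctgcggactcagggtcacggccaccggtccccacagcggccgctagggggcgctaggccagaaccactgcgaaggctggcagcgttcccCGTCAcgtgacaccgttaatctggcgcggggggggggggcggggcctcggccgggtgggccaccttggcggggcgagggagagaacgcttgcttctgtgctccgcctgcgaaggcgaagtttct
Fbp2 promoter, chr13:62858351-62858650, minus strand: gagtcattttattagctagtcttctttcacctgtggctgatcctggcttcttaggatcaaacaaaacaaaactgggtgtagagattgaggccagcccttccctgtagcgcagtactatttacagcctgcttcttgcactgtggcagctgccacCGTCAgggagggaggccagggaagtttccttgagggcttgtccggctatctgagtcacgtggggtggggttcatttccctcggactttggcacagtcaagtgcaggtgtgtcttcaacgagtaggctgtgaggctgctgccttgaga
G6pc promoter, chr11:101367466-101367765, plus strand: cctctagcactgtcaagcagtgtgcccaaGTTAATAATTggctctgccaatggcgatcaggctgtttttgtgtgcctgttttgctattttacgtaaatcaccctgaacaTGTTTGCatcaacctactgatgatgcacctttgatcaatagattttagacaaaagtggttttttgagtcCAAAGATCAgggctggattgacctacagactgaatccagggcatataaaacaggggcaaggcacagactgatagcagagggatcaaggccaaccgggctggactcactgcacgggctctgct
Pck1 promoter, chr2:173152823-173153122, plus strand: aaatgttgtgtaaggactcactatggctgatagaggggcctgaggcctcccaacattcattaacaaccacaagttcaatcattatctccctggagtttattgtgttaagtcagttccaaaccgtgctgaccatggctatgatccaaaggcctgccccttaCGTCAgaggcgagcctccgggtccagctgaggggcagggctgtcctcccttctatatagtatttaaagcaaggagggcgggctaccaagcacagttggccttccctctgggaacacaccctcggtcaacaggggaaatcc
The motifs were CAAAGTCCA and its looser form CAAAGNNCA for HNF4, the HNF1 palindrome and a shorter form that drops its last bases, TGACGTCA and its shorter form TGACG for cAMP-response factors, and TGTTTAC and TGTTTGC for forkhead factors, each on both strands. The shorter or looser form also finds every match of its longer form. All 7 enzymes had at least 1 window in the table, and Pcx had 2.

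The Khk and G6pc windows each held CAAAGATCA, a match to the looser HNF4 form, which 6.36% of all 32851 windows held. In Khk it lay on the opposite strand at bases -195 to -187, and in G6pc on the gene's strand at bases -72 to -64. The stricter CAAAGTCCA, found in 0.475% of windows, was in none of the 8 windows of the 7 enzymes. G6pc also held the shorter HNF1 form at bases -221 to -212 (0.399% of windows) and TGTTTGC at -141 to -135 (5.07% of windows). TGACG, in 20.8% of windows, was on the opposite strand of Pck1 at -90 to -86, Fbp2 at -97 to -93 and Khk at -74 to -70. The Fbp1, Pck2 and Pcx windows held none of the motifs, nor did any of the 7 enzymes hold the full HNF1 palindrome (0.00913% of windows), TGACGTCA (1.79%) or TGTTTAC (3.65%). A match is no proof of a site, and its absence says only that these letters are not in this window.

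The RNA signals of both fructose bisphosphatase genes were lower in the mutants, to very different extents. Fbp1 had log2 signals of 6.08, 5.93 and 6.69 in mutants 1, 2 and 3, against 8.34, 8.62 and 8.89 in controls 1, 2 and 3. Every mutant lay below every control, and mutant 3 was the highest of the mutants. The mean was 6.23 ± 0.40 in mutants and 8.62 ± 0.27 in controls (SD, n = 3 each), a difference of -2.39 ± 0.22 SE with a 95% interval from -2.88 to -1.89, or 5.23-fold lower. This was the 7th largest fall of the 18193 genes. The gap between the highest mutant and the lowest control, 1.66, exceeded the range within the mutants, 0.75, and within the controls, 0.54.

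Fbp2 had signals of 10.71, 10.85 and 10.72 in mutants 1, 2 and 3, against 11.11, 11.17 and 11.13 in controls 1, 2 and 3. The groups did not overlap, although the difference, -0.38 ± 0.10 SE (95% interval from -0.60 to -0.16), amounts to a signal 1.30-fold lower. The mean was 10.76 ± 0.08 in mutants and 11.14 ± 0.03 in controls (SD, n = 3 each), the smallest SDs among the 7 enzymes in either group. Since probe sets differ in how brightly they read, the signals of Fbp1 and Fbp2 cannot be set against each other as levels. Of 7 markers of skeletal muscle, the tissue in which Fbp2 is best known, 3 (Acta1, Ckm and Mylpf) read above the array median in every array and the other 4 in none, and 0 passed the test. The mean of the 7 was 4.20 to 4.42 in mutants and 4.14 to 4.32 in controls.

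Hnf4a was lower in the same arrays. It read 8.83, 8.83 and 9.82 in mutants 1, 2 and 3, against 11.82, 11.76 and 11.57 in controls 1, 2 and 3, and its other 3 probe sets were also lower in every mutant than in any control. Mutant 3 had the highest Hnf4a of the mutants with 3 of the 4 probe sets, and the lowest, 6.03 against 6.47 and 6.05 in mutants 1 and 2, with the remaining one. Mutant 3 was also the mutant with the highest Fbp1. When all genes brighter than the median gene were ranked by how closely their centred values followed those of Fbp1 over the 6 arrays, the nearest of 9089 candidates was Hnf4a itself, at a root mean square distance of 0.27 (log2). Akr1c19 and Akr1c14, aldo-keto reductase genes, came next at 0.30 and 0.36, and all 3 were lower in every mutant. The ranking rewards genes that differ between the groups by a like amount, so it is a description of shape only.

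Glucose 6-phosphatase, the last step, did not follow Fbp1. G6pc read 8.15, 8.19 and 7.61 in mutants 1, 2 and 3, against 8.04, 8.21 and 7.67 in controls 1, 2 and 3. The groups overlapped almost entirely, and each held 1 lower animal, mutant 3 and control 3. The mean was 7.98 ± 0.33 in mutants and 7.97 ± 0.28 in controls (SD, n = 3 each), a difference of 0.01 ± 0.20 SE whose 95% interval, from -0.44 to 0.46, leaves room for a change of that size in either direction. The genes nearest to G6pc in shape were Mical1, Galnt12 and Zbed3, at distances of 0.09 each, and none of them was apart between the groups.

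**Figure D2:**
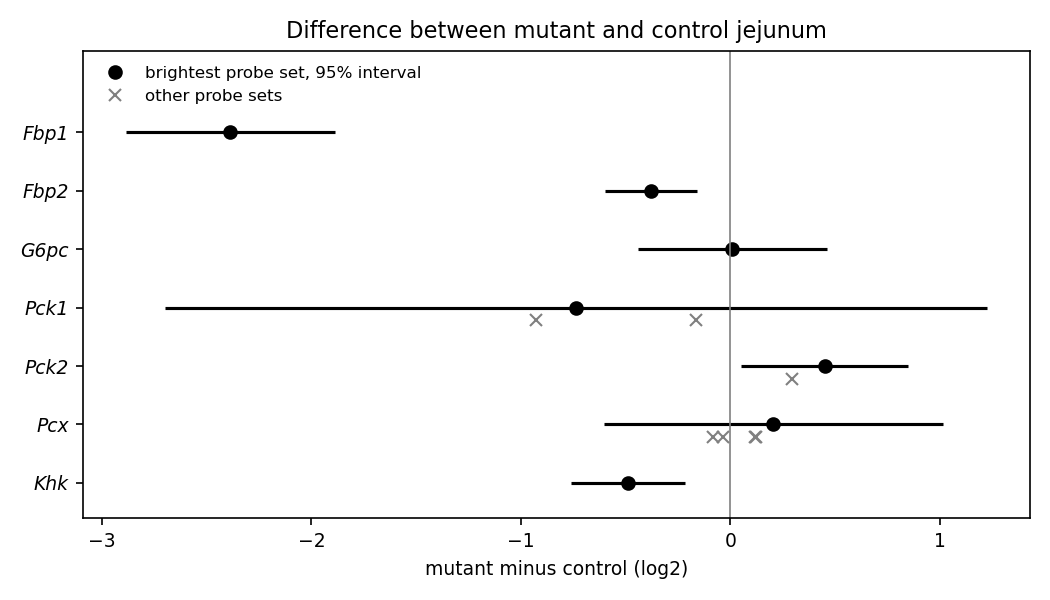
Difference between mutants and controls (mutant minus control, log2, x axis) for the 7 enzymes, with the brightest probe set as a dot, its 95% interval as a line and other probe sets of the same gene as crosses below it. The interval runs from -2.88 to -1.89 for Fbp1 and from -2.70 to 1.22 for Pck1. The intervals are not adjusted for the number of genes. They are no test, as the enzymes were chosen by these differences.

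The signal of Pck1, the cytosolic phosphoenolpyruvate carboxykinase, varied more among the mutants than between the groups. Pck1 read 8.97, 8.79 and 5.31 in mutants 1, 2 and 3, against 8.08, 8.55 and 8.65 in controls 1, 2 and 3. Mutants 1 and 2 lay above all controls, and mutant 3 lay far below every other animal. The mean, 7.69 ± 2.06 in mutants and 8.42 ± 0.30 in controls (SD, n = 3 each), therefore describes no animal of the mutant group, and the difference of -0.74 ± 0.85 SE became 0.45 without mutant 3.

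The low Pck1 signal of mutant 3 was seen with a second probe set, which read 7.70, 8.14 and 4.04 in mutants 1, 2 and 3, against 7.47, 7.39 and 7.81 in controls 1, 2 and 3. Relative to the mean of the other mutants, mutant 3 was 11.8-fold lower with the brightest probe set and 14.8-fold lower with this one. A further Pck1 probe set read between 2.23 and 2.54 in all arrays, below the array medians. No other gene of the 18193 set mutant 3 as far below every other array as Pck1 did, with 2.77 to the next array, and the second was Hddc3 with 2.03. Hddc3, Slc5a4a, a gene of the sodium-glucose cotransporter family, and Leap2 were the genes nearest to Pck1 in shape, at distances of 0.53, 0.70 and 0.72. Slc5a4a read 8.42, 8.13 and 6.45 in mutants 1, 2 and 3, against 8.66, 9.25 and 9.56 in controls 1, 2 and 3.

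Pck2, the mitochondrial form, leaned the other way. It read 8.17, 8.16 and 7.55 in mutants 1, 2 and 3, against 7.44, 7.58 and 7.51 in controls 1, 2 and 3. Mutants 1 and 2 were above all controls and mutant 3 was among them. The mean was 7.96 ± 0.36 in mutants and 7.51 ± 0.07 in controls (SD, n = 3 each), a difference of 0.45 ± 0.17 SE (95% interval from 0.05 to 0.85). A dimmer Pck2 probe set differed by 0.30 ± 0.20 SE, with 4.59, 4.38 and 3.81 in mutants 1, 2 and 3 and 4.01, 4.13 and 3.75 in controls 1, 2 and 3.

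Pyruvate carboxylase, the entry step, showed no separation. Pcx read 6.44, 7.35 and 5.95 in mutants 1, 2 and 3, against 6.20, 6.06 and 6.87 in controls 1, 2 and 3, a difference of 0.21 ± 0.35 SE (95% interval from -0.60 to 1.01). The highest animal was mutant 2 and the next was control 3. The array also carries 4 control probe sets for Pcx, which were left out of the fit over genes. The one at the 3' end of the transcript read 6.75, 7.67 and 6.44 in mutants 1, 2 and 3, against 6.74, 6.69 and 7.07 in controls 1, 2 and 3, so mutant 2 and control 3 were again the highest. The control probe sets differed between the groups by -0.08 to 0.12. Mutant 2 was the array with the most fat RNA, a tissue in which Pcx is abundant. The mean of 6 measured fat markers was 8.74 there, against 6.77 to 7.18 in the other 5 arrays. Of these 6, 5 read above the array median in every array and Lep in none, and Adipoq, the gene of the fat hormone adiponectin, read 7.78, 10.38 and 7.00 in mutants 1, 2 and 3 and 7.68, 8.21 and 7.96 in controls 1, 2 and 3. Without mutant 2 the Pcx difference was -0.18. The part of fat RNA in the Pcx and Pck1 signals was not tested.

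Ketohexokinase was lower in all mutants. Khk read 9.58, 9.75 and 9.50 in mutants 1, 2 and 3, against 10.01, 10.03 and 10.26 in controls 1, 2 and 3. The groups did not overlap, with 0.26 between the highest mutant and the lowest control, about as much as the range within either group (0.25 in each). The mean was 9.61 ± 0.13 in mutants and 10.10 ± 0.14 in controls (SD, n = 3 each), a difference of -0.49 ± 0.12 SE (95% interval from -0.76 to -0.22), or 1.40-fold lower. Stxbp5, Cdk5rap1 and Nadsyn1 were nearest to Khk in shape, at distances of 0.04, 0.04 and 0.05, and each was lower in every mutant without passing the test.

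The rest of the pathway was followed through 5 lists with 84 genes, of which 70 were measured with a single-symbol probe set, and the others were not analysed here. In limma's moderated test over all 18193 genes 1 of the 70 rose, 1 fell, Hnf4a itself, and 68 did not pass, while at an unadjusted p under 0.05 there were 11 higher and 11 lower, where 5.24% of all genes were higher, 6.85% lower and 12.1% either. Over all genes 96 passed, a number that was 24 without control 2, 22 without control 3 and 41 without mutant 2.

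Of 15 measured genes at the entry and exit of gluconeogenesis, 1 rose, 0 fell and 14 did not pass, with a list median of -0.28. With limma's unadjusted p under 0.05, 4 were lower and 1 higher, against 6.85% and 5.24% of all genes. The gene that rose was Pfkfb3, which makes the signal metabolite that activates glycolytic phosphofructokinase and inhibits fructose bisphosphatase. Pfkfb3 read 6.44, 6.84 and 6.39 in mutants 1, 2 and 3, against 5.60, 5.33 and 5.60 in controls 1, 2 and 3, a difference of 1.05 ± 0.15 SE or 2.06-fold higher (limma, adjusted p = 0.0307). The groups did not overlap. A dimmer Pfkfb3 probe set, which read between 3.85 and 4.07 in the 6 arrays, near the array medians, differed by -0.11. The Pfkfb3 call was lost with any 1 array but mutant 3 left out, with limma's adjusted p from 0.0512 to 0.127, and with the replicate number as a block (limma's adjusted p = 0.104). Slc37a4, the carrier that brings glucose 6-phosphate to G6pc, read 8.37, 8.35 and 7.62 in mutants 1, 2 and 3, against 8.69, 9.20 and 9.06 in controls 1, 2 and 3, a difference of -0.87 ± 0.22 SE that did not pass (limma, adjusted p = 0.17). Slc25a10, the mitochondrial dicarboxylate carrier, and Got1, the cytosolic aspartate aminotransferase, differed by -0.60 ± 0.18 SE and -0.44 ± 0.17 SE, neither past the test.

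Among glycolytic and reversible steps no gene passed, 11 of 17 means were above those of the controls and 6 below. Over all 18193 genes 8505 means were above and 9688 below. Of the 17 genes 0 rose and 0 fell in limma's test, with a list median of 0.07. At an unadjusted p under 0.05, 5 were higher and 0 lower, against 5.24% and 6.85% of all genes. Hexokinase 1 (Hk1) differed by 0.64 ± 0.13 SE (limma, adjusted p = 0.0907), the liver-type pyruvate kinase gene Pklr by 0.61 ± 0.16 SE, the enolase gene Eno3 by 0.89 ± 0.23 SE and the aldolase gene Aldoc by 0.37 ± 0.11 SE. Every mutant lay above every control for each of these 4 genes, as in 6.93% of all genes. They were named for the smallest p of the list, which favours such separation. Hexokinase 2 (Hk2), named after its values were seen, had the largest difference of the list and the widest spread among mutants, with 7.50, 8.15 and 9.59 in mutants 1, 2 and 3, against 7.31, 7.00 and 6.98 in controls 1, 2 and 3, a difference of 1.32 ± 0.45 SE that did not pass. A dimmer Hk1 probe set differed by 0.36 ± 0.19 SE with overlapping groups. With probe sets averaged per gene the differences were 0.50 for Hk1, 0.43 for Pklr, 0.32 for Aldoc and an unchanged 0.89 for Eno3.

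Among the genes of fructose uptake and fructose breakdown beside Khk none passed the test. Of 6 measured genes 0 rose and 0 fell in limma's test, with a list median of -0.23. At an unadjusted p under 0.05, 1 was lower and 0 higher, against 6.85% and 5.24% of all genes. Slc2a5, the apical fructose transporter GLUT5, read 8.10, 8.09 and 7.32 in mutants 1, 2 and 3, against 8.31, 8.53 and 8.71 in controls 1, 2 and 3, a difference of -0.68 ± 0.22 SE (limma, adjusted p = 0.263). All mutants were below all controls, as in 10.2% of all genes, with mutant 3 the lowest. Without mutant 3 the difference was -0.43. Mlxipl, the carbohydrate-responsive factor ChREBP, differed by -0.25 ± 0.13 SE, Slc2a2, the transporter GLUT2, by -0.28 ± 0.20 SE and Txnip, a target of ChREBP in other tissues, by -0.21 ± 0.18 SE. These 3 values moved with single arrays, to -0.15 for Mlxipl without control 2, -0.06 for Slc2a2 without mutant 3 and -0.01 for Txnip without mutant 1. Tkfc, which phosphorylates glyceraldehyde downstream of Khk, differed by 0.06.

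**Figure D3:**
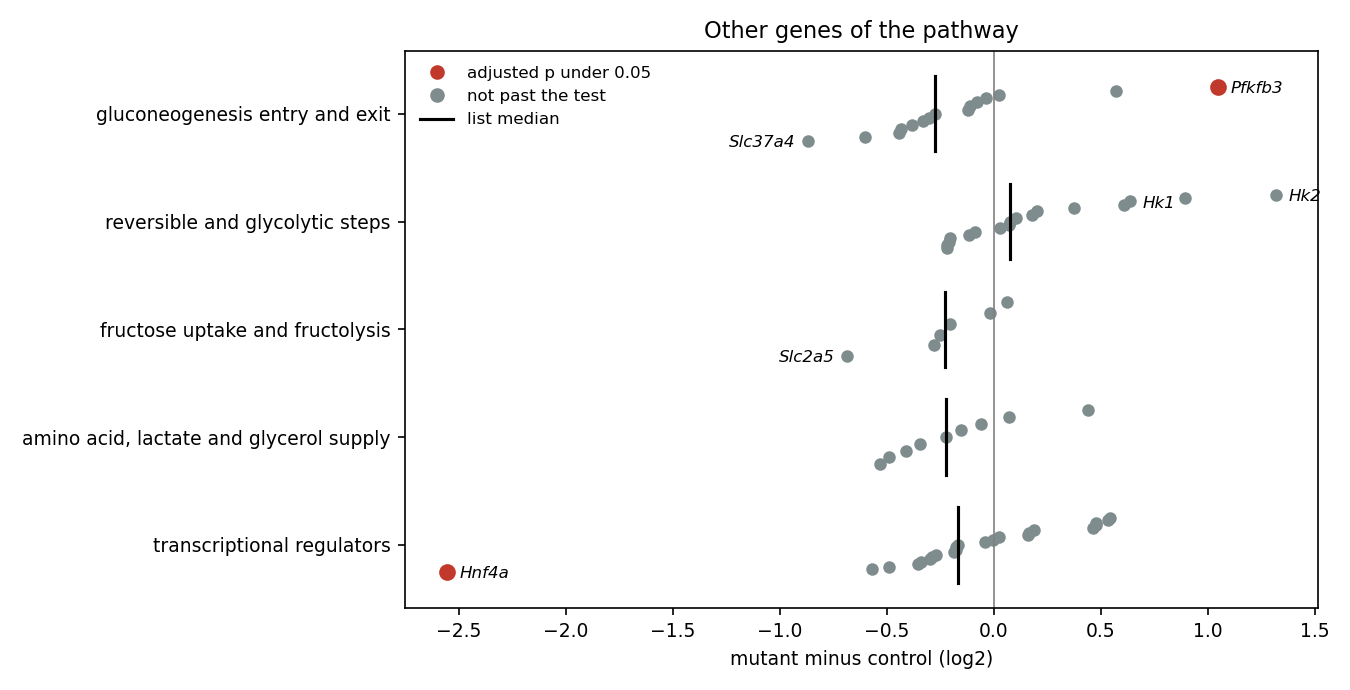
Difference between mutants and controls (mutant minus control, log2, x axis) for the 70 other measured genes of the pathway, with 1 dot per gene in its list, red where the adjusted p was under 0.05 and a bar at the list median. Pfkfb3 at 1.05 and Hnf4a at -2.56 are the 2 red dots.

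Among genes that supply substrate, 7 of 9 means were below those of the controls and none passed. Over all 18193 genes 9688 means were below. Of the 9 genes 0 rose and 0 fell in limma's test, with a list median of -0.22. At an unadjusted p under 0.05, 3 were lower and 1 higher, against 6.85% and 5.24% of all genes. The cytosolic glycerol phosphate dehydrogenase gene Gpd1 differed by -0.49 ± 0.13 SE, the alanine aminotransferase gene Gpt by -0.53 ± 0.17 SE and the lactate carrier gene Slc16a1 by -0.41 ± 0.14 SE, whereas Gpd2, the mitochondrial glycerol phosphate dehydrogenase, differed by 0.44 ± 0.14 SE. None of these 4 passed. With probe sets averaged per gene the differences were smaller, at -0.35 for Gpd1, -0.31 for Gpt, -0.19 for Slc16a1 and 0.25 for Gpd2. With the brightest probe set of each of the 4 genes the groups did not overlap, as in 17.1% of all genes. They were named for the smallest p of the list, which favours such separation.

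Of 23 measured transcriptional regulators of gluconeogenic genes, 1 fell, Hnf4a, and 0 rose, with a list median of -0.17. With limma's unadjusted p under 0.05, 3 were lower, Hnf4a included, and 4 higher, against 6.85% and 5.24% of all genes. Foxo1, a forkhead factor that induces G6pc and Pck1 in fasting liver, differed by 0.54 ± 0.12 SE (limma, adjusted p = 0.109). The glucocorticoid receptor gene Nr3c1 differed by -0.49 ± 0.12 SE and Esrra, the estrogen-related receptor gene, by -0.34 ± 0.10 SE. For these 3 genes, named for their small p, the groups did not overlap, as in 17.1% of all genes. With probe sets averaged per gene the differences were smaller, at 0.30 for Foxo1, -0.38 for Nr3c1 and -0.27 for Esrra.

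Markers of some cell types and gut regions moved with the groups or with single arrays. Smooth muscle markers did not, with a mean of 9.96 to 10.18 in mutants and 9.81 to 10.25 in controls. The mean of 8 measured markers of absorptive epithelium lay between 12.23 and 12.36 in mutants and between 12.43 and 12.54 in controls, and 0 of the 8 passed. In bulk tissue fewer cells of a type and less RNA per cell cannot be told apart. The 8 differed by between -0.61 for Lct and 0.33 for Cdh1, with a median of -0.16, every mutant lying below every control for Lct and above for Cdh1. Of 7 liver markers, 5 read below the array median in every array, Alb among them, and Apoa2 and Ttr above it in every array. Ttr differed by -0.80 ± 0.14 SE, each mutant below each control, without passing the test. Control 3 held pancreatic acinar RNA, with a mean of 7.80 over 6 markers against 3.83 to 4.06 in the other 5 arrays, and immune markers had a mean of 6.01 to 6.51 in mutants and 5.45 to 6.30 in controls. Y-linked transcripts had a mean of 5.62 in mutant 3 and 5.54 in control 1, against at most 2.70 in the other arrays. Rank correlations between arrays were 0.980 to 0.987.

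Markers of the ileum, the segment beyond the jejunum, had higher means in the mutants and differed widely among the controls, with none past the test. The mean of the 6 ileal genes was 7.77 to 8.28 in mutants and 6.07 to 7.45 in controls. Of the 6, 4 were higher with limma's unadjusted p under 0.05, against 5.24% of all genes, and 0 passed the adjusted threshold. Fabp6, the ileal bile acid binding protein gene, read 9.57, 10.03 and 9.80 in mutants 1, 2 and 3, against 9.15, 6.67 and 3.37 in controls 1, 2 and 3. Slc10a2, the ileal bile acid transporter gene, read 3.99, 4.40 and 6.98 in mutants 1, 2 and 3, against 3.31, 2.93 and 3.26 in controls 1, 2 and 3. Mutant 3, which had the lowest Pck1, Slc2a5, Slc37a4 and Khk signals, had the highest Slc10a2. Mutant 3 and control 1 were also the arrays with high Y-linked transcripts. Control 1 had the lowest Pck1, Slc2a5, Slc37a4 and Khk signals of the controls. With Y-linked expression as a covariate the difference was -0.76 ± 0.52 SE for Pck1 and -0.87 ± 0.11 SE for Slc37a4. The part of sex in these values was not tested. Among the 7 markers of proximal small intestine, Gip and Onecut2 fell and 5 did not pass, Onecut2 with signals near or below the array medians. The other 5 differed by -0.34 (Gata4), -0.12 (Pdx1), -0.04 (Slc40a1), 0.22 (Cybrd1) and 0.90 (Cck), with Gata4 lower and Cck higher in every mutant than in any control.

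Control 1 had a Fabp6 signal of 9.15, near those of the mutants, and its Fbp1 signal was 8.34, against 6.69 or less in the mutants. Its mean over the 6 ileal genes, 7.45, was below that of every mutant, and its Gip signal, 10.85, was with the other controls. Control 1 was therefore not matched to the mutants in these markers. Khk in control 1, at 10.01, and Fbp2, at 11.11, were each the lowest of the controls and above all mutants. The position along the gut at which each biopsy was cut is not in the labels, and the part of position in these differences was not tested.

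**Figure D4:**
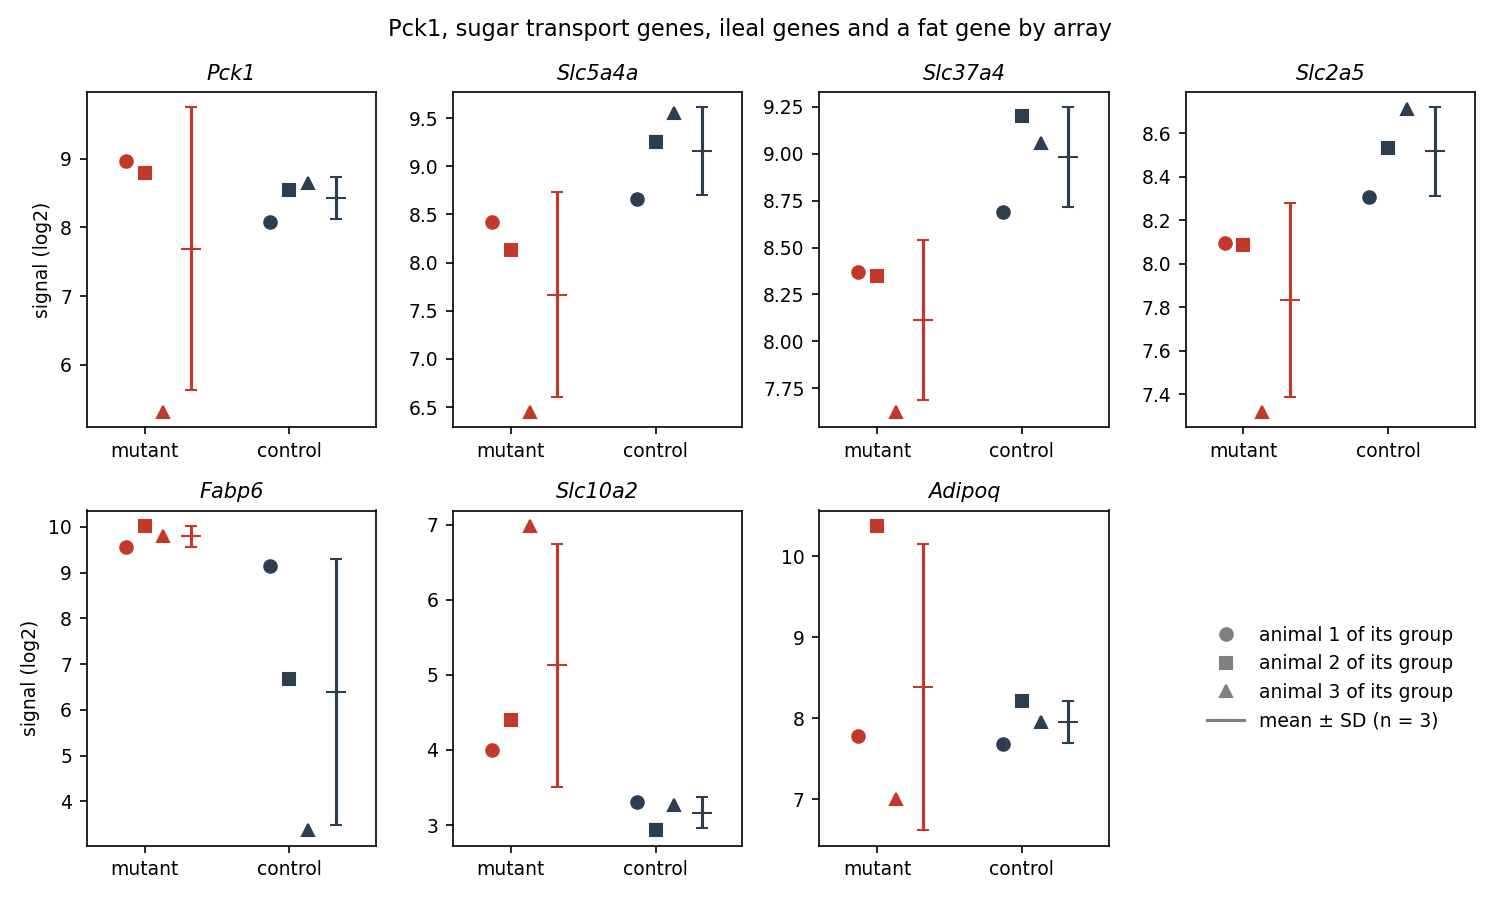
Signal (log2, a y axis of its own in each panel) of Pck1, of the sugar transport genes Slc5a4a, Slc37a4 and Slc2a5, of the ileal genes Fabp6 and Slc10a2 and of the fat gene Adipoq in 3 mutant and 3 control arrays, with 1 symbol per animal and the mean and SD beside the points. Mutant 3 is the lowest array for Pck1, Slc5a4a, Slc37a4 and Slc2a5 and the highest for Slc10a2, and mutant 2 is the highest for Adipoq.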

How the data were processed

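The authors deposited 1 log2 signal per probe set and array for 3 mutant and 3 control jejunum samples. That they are log2 was inferred from their range, 1.80 to 14.5. How the authors corrected background, summarised probes and normalised is not given in the sources used. Array medians were 3.93 to 3.98, and the values were used as deposited. Of 45101 probe sets, 64 Affymetrix control probe sets were left out of the fit. The platform annotation gave 1 symbol to 34945 of the rest, several to 932 and none listed to 9160. For each of 18193 genes the single-symbol probe set with the highest mean over the 6 arrays was used, and 0 probe sets of the enzymes carried a second symbol.

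Mutants were set against controls in limma 3.58.1 (two-sided, eBayes after lmFit) under R 4.3.3, with Benjamini-Hochberg adjustment over all genes and a threshold of 0.05. The procedure was tested on simulated data. P-values rest on the spread between animals, and the number of arrays limits the precision. The enzymes and lists were chosen with earlier results of these data known. Genes were named by rule: the 7 enzymes, Hnf4a, called genes or otherwise the 4 with the smallest p of each list, and the 3 nearest in shape to Fbp1, Khk, G6pc and Pck1. Other genes named (Tkfc and the markers beside a result) were chosen after their values were seen. The protein comparison planned for the paralogs was not made, as protein sequences were not used here. Alternatives covered normalisation, a filter on dim genes, the choice of probe sets, the variance model, covariates, thresholds and the arrays left out.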

Additional observations from a re-analysis of the deposited data

How the results depend on the processing

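The direction of the Fbp1, Fbp2, Khk and Pck2 differences held in all 15 alternatives, with ranges of -2.61 to -2.10, -0.42 to -0.33, -0.56 to -0.41 and 0.35 to 0.66. For Fbp1, Fbp2 and Khk the groups did not overlap, so leaving out arrays could not reverse the direction. Their differences are also the same by construction under the dim-gene filter, the choice of probe sets, the variance model and the replicate block. Pck1 turned to 0.45 without mutant 3 and Pcx to -0.18 without mutant 2, while G6pc ranged from -0.25 to 0.20. Fbp1 was the 1 enzyme past the threshold in each alternative but the omission of control 3 and mutant 2 together. There 0 of 7 passed, and Fbp1 differed by -2.10. The choice of the enzymes by their measured difference favoured these calls, so they are no test of the enzymes. The number of changed genes, 96, became 62 with the replicate number as a block, 196 with Y-linked expression as a covariate, 20 at an adjusted p under 0.01, 4 with control 3 and mutant 2 omitted, and 22 to 96 with 1 array left out. Of the 70 other pathway genes, 2 passed, a number that became 1 when probe sets were averaged per gene, with all probe sets fitted or with the replicate block, 0 with control 3 and mutant 2 omitted (8 higher and 11 lower with limma's unadjusted p under 0.05), and 0 to 2 with 1 array left out. With the Y-linked covariate Slc37a4 also passed (limma, adjusted p = 0.0219). Hnf4a missed the threshold without control 2 (limma, adjusted p = 0.0506). Correlations of same-numbered deviations were 0.07, 0.07 and -0.02, within the range of differently numbered ones, -0.17 to 0.13. With 3 arrays a group these values cannot settle whether replicate numbers pair the samples. The block is therefore given only as an alternative. Fewer arrays also give less power, and 3 arrays a group limit all intervals given.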
